A study of Rattus norvegicus with 24 samples.

Results

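The endothelin system was followed through 6 genes, 2 ligands (Edn1 and Edn3), 2 receptors (Ednra and Ednrb) and 2 converting enzymes (Ece1 and Ece2), which were taken by gene symbol from the 20506 genes that held values in the deposited expression table. All 6 had a row. Their levels are given as FPKM, a level scaled by transcript length and by the mapped fragments of the library, in 24 RNA-seq libraries of 24-week-old rats. The libraries came from SHR, the spontaneously hypertensive rat, and from WKY, the Wistar-Kyoto rat, which is the usual normotensive comparison strain. Each strain gave 4 libraries of the left ventricle, 4 of the adrenal gland and 4 of the superior cervical ganglion, the sympathetic ganglion of the upper neck. No drug, allele or transgene is given for any group. The strains differ in many loci as well as in blood pressure, so inherited and pressure-related differences cannot be told apart here.

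Endothelins are short vasoactive peptides that are cut from larger precursors, first by furin-type proteases and then by the membrane metalloproteases ECE1 and ECE2. They act on a pair of G protein-coupled receptors. Receptor A, on smooth muscle and cardiac myocytes, signals through Gq and phospholipase C to calcium release, contraction and growth, whereas receptor B, best known on endothelium, releases nitric oxide and clears the peptide, although it also occurs on other cells. Endothelin 1 is the main endothelial ligand, and endothelin 3 acts preferentially on receptor B, a pair needed for neural crest derivatives such as enteric neurons and melanocytes.

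The libraries matched their tissue labels. Summed FPKM of 8 cardiomyocyte markers lay between 35375 and 36822 in SHR and between 36798.5 and 39001 in WKY left ventricles. Summed FPKM of 8 adrenal cortex markers lay between 29756 and 30101 in SHR and between 28420 and 30552.5 in WKY adrenal glands. Summed FPKM of 8 neuronal markers lay between 8582 and 8859 in SHR and between 7889 and 8478 in WKY ganglia. In the other tissues these sums did not exceed 18.87 for cardiomyocyte, 70.35 for adrenal cortex and 70.08 for neuronal markers. Libraries of 1 strain and tissue correlated at 0.979 or more, on the log2(FPKM + 1) scale across genes. The library farthest from its own group was SHR replicate 3 of the adrenal gland, whose mean correlation with its group was 0.981. The number of reads behind each value is unknown, because FPKM does not keep it. Nothing in the labels ties each library to its own rat, so p-values measure the spread between libraries, which may be technical.

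The 6 genes, with the NCBI Gene identifiers 24323 (Edn1), 366270 (Edn3), 24326 (Ednra), 50672 (Ednrb), 94204 (Ece1) and 408243 (Ece2), had different tissue patterns. Edn3 and Ece2 were ganglion genes, Ednra and Ednrb were highest in the left ventricle, Ece1 was highest in the adrenal gland, and Edn1 was low everywhere. In left ventricles the order of mean FPKM over 8 libraries was Ece1 (62.6), Ednrb (18.5), Ednra (13.0), Edn1 (1.45), Ece2 (1.18) and Edn3, which was listed at 0 in all 8. In adrenal glands the order was Ece1 (128), Ednrb (6.69), Ednra (2.72), Ece2 (1.46), Edn1 (0.241) and Edn3 (0.155). In ganglia it was Edn3 (63.5), Ece2 (51.7), Ece1 (43.4), Ednrb (5.62), Edn1 (1.12) and Ednra (0.626). Neighbours whose library values overlapped were Ednrb and Ednra in ventricles, Edn1 and Ece2 in ventricles, Ednrb and Ednra in adrenal glands, Ednra and Ece2 in adrenal glands, Edn1 and Edn3 in adrenal glands, Edn3 and Ece2 in ganglia, and Edn1 and Ednra in ganglia.

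**Figure D1:**
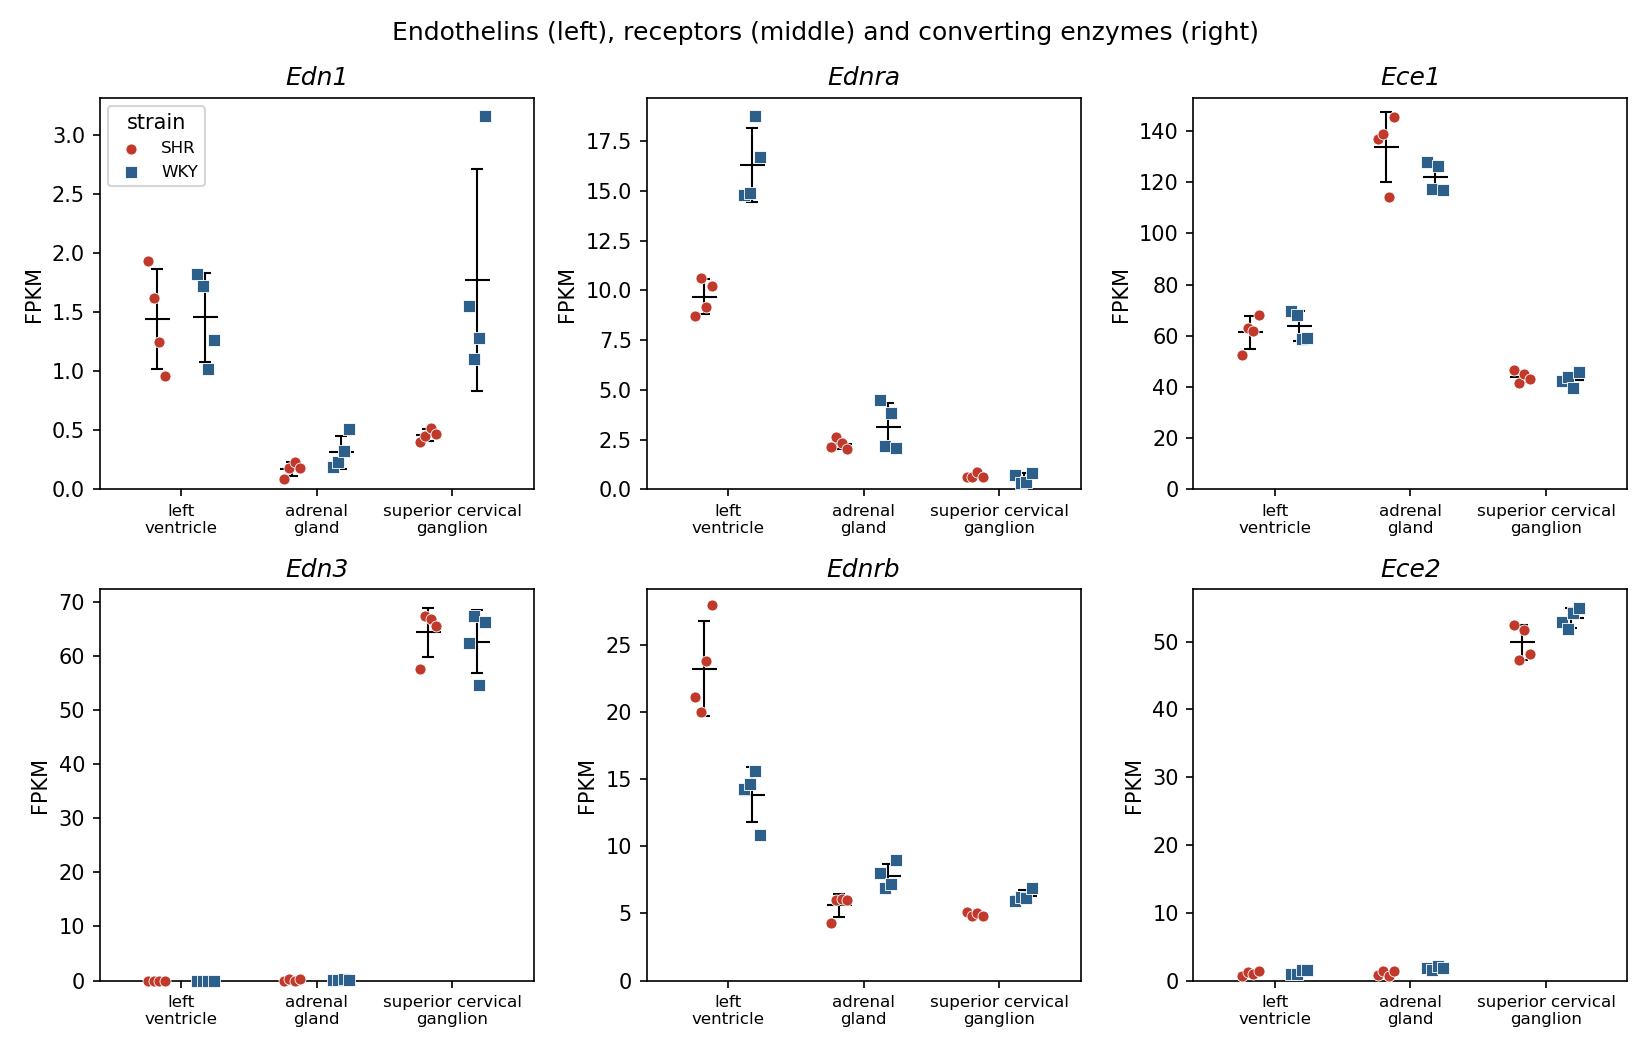
FPKM of the 6 genes by tissue and strain, SHR left of WKY. Points are the 4 libraries of a group and bars are the mean with its SD. Edn3 and Ece2 are near 0 outside the ganglion, and in the left ventricle the SHR points lie below the WKY points for Ednra and above them for Ednrb.

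The tissue differences were tested in a single limma model of all 24 libraries, with Benjamini-Hochberg adjustment over 14682 genes at a threshold of 0.05. In this model 82.8% of genes differed between adrenal gland and left ventricle in SHR and 81.8% in WKY, so a call alone says little. Edn3 averaged 64.3 ± 4.54 FPKM in SHR ganglia and 62.6 ± 5.76 FPKM in WKY ganglia (SD, n = 4 each), whereas it did not exceed 0.27 FPKM in any adrenal gland. Ece2 was 4.63 log2 units higher in ganglia than in left ventricles in SHR and 4.58 in WKY (adjusted p = 7.73e-21 and 9.27e-21), on the log2(FPKM + 1) scale. Against this, Ece2 in adrenal glands and left ventricles of SHR differed by -0.01 (adjusted p = 0.961), and the difference of 0.32 in WKY (adjusted p = 0.0150) was lost under median-of-ratios scaling (0.15, adjusted p = 0.262), under quantile normalization (adjusted p = 0.0587) and without WKY replicate 1 (adjusted p = 0.0886). 83.2% of genes differed between ganglion and left ventricle in SHR and 83.8% in WKY, and 83.8% differed between adrenal gland and ganglion in SHR and 84.5% in WKY.

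Ece1 was 1.11 log2 units higher in adrenal glands than in left ventricles in SHR (SE 0.08) and 0.93 in WKY, with adjusted p-values of 6.27e-12 and 1.90e-10. The median difference over all genes in that contrast was 0.25 in both strains, and median-of-ratios scaling moved it to 0.05 in SHR and 0.04 in WKY. Ednra followed the order left ventricle, adrenal gland, ganglion, and differed between ganglia and left ventricles by -2.67 log2 units in SHR and -3.47 in WKY. Ednrb was also lower in ganglia than in left ventricles, with differences of -2.02 in SHR and -1.01 in WKY. Ednrb in adrenal glands and ganglia differed by 0.14 in SHR (adjusted p = 0.236) and by 0.26 in WKY (adjusted p = 0.0346). The WKY difference was lost under median-of-ratios scaling (0.06, adjusted p = 0.622), under quantile normalization (adjusted p = 0.0518) and without WKY replicate 1 (adjusted p = 0.143), 3 (adjusted p = 0.0569) or 4 (adjusted p = 0.0540). Edn1 in ganglia and left ventricles of WKY differed by 0.13 (adjusted p = 0.438), while in SHR it was lower in ganglia (-0.72, adjusted p = 2.22e-04).

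Within the left ventricle, 2 of the 5 genes tested differed between strains, against 21.2% of the 12451 genes tested. Both were receptors, and they moved in opposite directions: Ednra was lower and Ednrb was higher in SHR. The genes tested had at least 1 FPKM in at least 4 of the 8 libraries, which left out Edn3. Both receptors had no overlap between strains, and 24.8% of tested genes had none.

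Neither ligand passed the test in left ventricles. Edn1 had 1.93, 1.62, 1.25 and 0.96 FPKM in SHR left ventricles, against 1.82, 1.72, 1.02 and 1.26 FPKM in WKY left ventricles. The ranges overlapped, and the difference was -0.01 (SE 0.15, limma adjusted p = 0.964). Edn3 was listed at 0 in all 8 left ventricles. Edn2, the ligand that is not among the 6 genes, stayed at or below 0.29 FPKM in SHR and 0.14 FPKM in WKY left ventricles.

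The promoters of Edn1, Ednra, Ednrb and Ece2 are shown because these genes changed between strains in at least 1 tissue. They are RefSeq sequences of assembly GRCr8, the 250 bases before the annotated gene start, read 5′ to 3′ on the gene's strand, whereas the submitters' processing notes name Rnor_6.0 for the expression values. Promoter entries were matched by NCBI Gene identifier for 5 of the 6 genes, all but Edn3. Motifs were searched on both strands by exact letters: the TATA box was spelled TATAAA, the GATA motif was spelled AGATAA, the AP-1 motif was spelled TGANTCA, the GC box was spelled GGGCGG, and the last motif was the CCAAT box. Capitals mark the matches, which do not overlap each other in the windows shown. The Edn1 window is chr17:22666688-22666937 on the minus strand, with a TATA box that begins 110 bases before the start and a GATA motif on the opposite strand that begins 214 bases before it.
Edn1: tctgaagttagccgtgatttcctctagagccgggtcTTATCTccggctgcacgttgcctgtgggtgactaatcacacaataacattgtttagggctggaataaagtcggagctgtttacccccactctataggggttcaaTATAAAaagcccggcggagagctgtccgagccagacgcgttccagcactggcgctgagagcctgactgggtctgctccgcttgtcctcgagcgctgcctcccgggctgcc
The Ednra window is chr19:47137674-47137923 on the plus strand, and the Ednrb window is chr15:87086766-87087015 on the minus strand. Neither holds a match to any of these motifs. The Ece2 window is chr11:93782639-93782888 on the minus strand, with the CCAAT box beginning 237 bases and the GC box beginning 56 bases before the start.
Ednra: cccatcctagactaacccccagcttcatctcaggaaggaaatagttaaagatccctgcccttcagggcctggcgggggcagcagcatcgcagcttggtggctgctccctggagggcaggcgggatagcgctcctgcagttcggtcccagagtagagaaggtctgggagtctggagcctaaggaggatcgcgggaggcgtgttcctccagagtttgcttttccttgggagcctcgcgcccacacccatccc
Ednrb: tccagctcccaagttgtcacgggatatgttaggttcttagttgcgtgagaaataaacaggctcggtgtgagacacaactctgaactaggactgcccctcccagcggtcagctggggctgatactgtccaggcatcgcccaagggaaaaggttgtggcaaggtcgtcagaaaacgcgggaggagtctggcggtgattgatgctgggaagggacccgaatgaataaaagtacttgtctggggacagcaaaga
Ece2: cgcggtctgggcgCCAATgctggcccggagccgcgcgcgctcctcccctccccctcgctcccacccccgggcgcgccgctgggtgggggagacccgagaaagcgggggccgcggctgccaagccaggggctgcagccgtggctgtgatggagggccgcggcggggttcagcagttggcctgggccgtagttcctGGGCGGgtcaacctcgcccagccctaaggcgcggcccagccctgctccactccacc
Of 33469 promoter windows of the same table and of the same length, 12.9% held a TATA box, 10.3% the GATA motif, 6.34% the AP-1 motif, 30.5% the GC box and 34.0% the CCAAT box. GC content was 56.4% for Edn1, 61.2% for Ednra, 53.2% for Ednrb and 76.4% for Ece2, and the median over all windows was 51.2%. The window of Ece1, which passed in no strain comparison, held the CCAAT box and the GC box as well and is not shown. A match describes these letters only, and no factor was measured.

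Ednra, the contractile Gq-coupled receptor, had 8.74, 10.61, 9.16 and 10.25 FPKM in SHR left ventricles, against 14.82, 14.91, 18.76 and 16.72 FPKM in WKY left ventricles. The highest SHR library lay below the lowest WKY library. The means were 9.69 ± 0.884 FPKM in SHR and 16.3 ± 1.86 FPKM in WKY (SD, n = 4 each), a ratio of 0.594. The log2 difference was -0.69 (SE 0.09, 95% interval -0.89 to -0.49, limma adjusted p = 7.83e-04), and the two-sided exact permutation test gave p = 0.0286, the smallest that 4 against 4 libraries can give. Without any one library the difference lay between -0.73 and -0.63, and the adjusted p between 9.94e-04 and 0.00349.

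Ednrb, the receptor with the clearance and nitric oxide roles, had 21.12, 20.01, 23.79 and 27.98 FPKM in SHR left ventricles, against 14.27, 14.67, 15.58 and 10.86 FPKM in WKY left ventricles. Every SHR library lay above every WKY library. The means were 23.2 ± 3.54 FPKM in SHR and 13.8 ± 2.06 FPKM in WKY (SD, n = 4 each), a ratio of 1.68. The log2 difference was 0.71 (SE 0.13, 95% interval 0.43 to 0.99, limma adjusted p = 0.00378; exact permutation p = 0.0286), and leaving out one library gave 0.60 to 0.77. The authors' deposited table gives log2 ratios of -0.72 for Ednra (q = 1.11e-08) and 0.83 for Ednrb (q = 9.52e-08).

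The balance of the receptors was computed after these values were seen, as log2(FPKM + 1) of Ednrb minus that of Ednra. In left ventricles it was 1.18, 0.86, 1.29 and 1.37 in SHR, against -0.05, -0.02, -0.25 and -0.58 in WKY. Ednrb thus exceeded Ednra in every SHR library, by 1.89 to 2.73 times in FPKM, and was below it in every WKY library, at 0.650 to 0.984 times. The mean balance differed by 1.4 between strains, which restates the opposite differences of the receptors and is given without a test. The sum of both receptors, 32.9 ± 3.78 FPKM in SHR and 30.1 ± 2.92 FPKM in WKY (SD, n = 4 each), had overlapping libraries. In adrenal glands the balance differed by -0.12. In ganglia it differed by -0.41, and by -0.63 with a pseudocount of 0.1, where Ednra was below 1 FPKM in all 8 libraries.

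**Figure D2:**
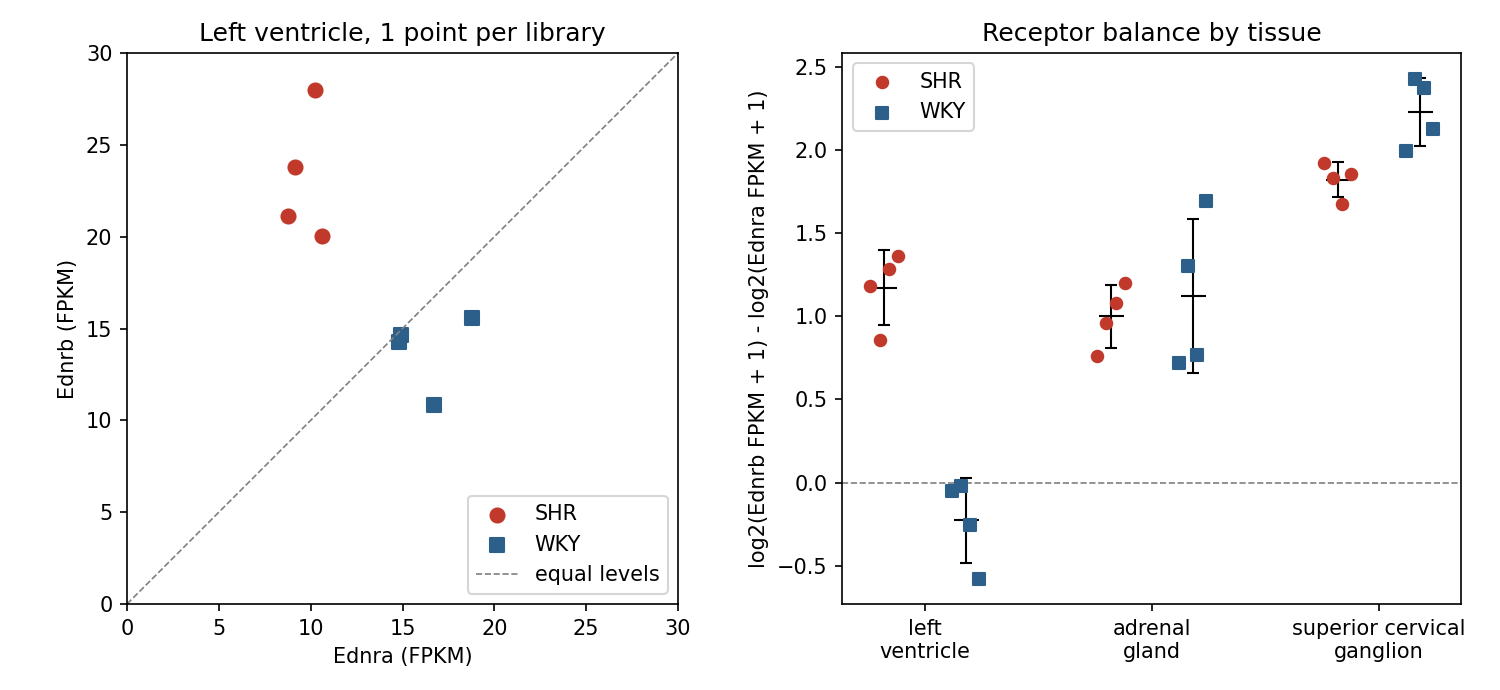
Left, Ednrb FPKM against Ednra FPKM in the 8 left ventricles, with a line of equal level; right, the log2(FPKM + 1) balance of Ednrb minus Ednra by tissue, SHR left of WKY, with the mean and SD. All 4 SHR ventricles lie on the Ednrb side of the line and all 4 WKY ventricles on the Ednra side.

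The converting enzymes did not pass the test in left ventricles. Ece1, the broadly expressed enzyme, averaged 61.3 ± 6.48 FPKM in SHR and 64.0 ± 5.83 FPKM in WKY (SD, n = 4 each), a difference of -0.06 (limma adjusted p = 0.661). Ece2, better known in neural and neuroendocrine tissue, averaged 1.07 ± 0.282 FPKM in SHR and 1.29 ± 0.330 FPKM in WKY (n = 4 each), a difference of -0.14 (adjusted p = 0.492). Both enzymes had overlapping libraries.

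Marker lists were read beside these values. Of 12 endothelial markers in left ventricles, none was higher and 2 (Tie1 and Egfl7) were lower in SHR, with a median difference of -0.15 against -0.03 over all genes, and their summed FPKM overlapped between strains (941 to 1147 in SHR, 920 to 1208 in WKY). Of 10 smooth muscle and pericyte markers, 1 was higher and none lower. Of 8 cardiomyocyte markers, 2 were higher and 3 lower (median -0.14). Of 9 Schwann cell and satellite glia markers, none was higher and 1 lower (median -0.44). The lower marker, S100b, averaged 0.4525 FPKM in SHR and 2.145 FPKM in WKY, and passed the filter only through the WKY libraries. Of 9 leukocyte markers, 5 were higher and none lower (median 0.76, summed FPKM 485 to 706 in SHR and 452 to 577 in WKY). In bulk tissue, fewer cells of a type and less RNA per cell cannot be told apart, and the part of any of these lists in the receptor differences was not tested.

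Within the adrenal gland, 2 of the 4 genes tested, Ednrb and Ece2, were lower in SHR, against 41.2% of the 12589 genes that changed in either direction and 24.7% that were lower. The count for these genes is near that background. Of all adrenal calls 40% were higher in SHR, and 53.1% were under median-of-ratios scaling. The genes tested excluded both ligands. Edn1 was listed at 0.09 to 0.23 FPKM in SHR and 0.19 to 0.51 FPKM in WKY adrenal glands (exact permutation p = 0.0857). Edn3 was listed at 0 to 0.26 FPKM in SHR and 0.09 to 0.27 FPKM in WKY adrenal glands (exact permutation p = 0.429).

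Ednra had 2.13, 2.61, 2.35 and 2.05 FPKM in SHR adrenal glands, against 4.49, 2.19, 3.82 and 2.09 FPKM in WKY adrenal glands. The WKY values were spread widely, and the difference of -0.29 (SE 0.19) did not pass (limma adjusted p = 0.234). Ednrb had 4.30, 6.01, 6.08 and 6.01 FPKM in SHR adrenal glands, against 8.05, 6.87, 7.20 and 8.98 FPKM in WKY adrenal glands. SHR libraries all lay below WKY libraries, and 39.4% of genes had no overlap in either direction. The means were 5.60 ± 0.867 FPKM in SHR and 7.78 ± 0.945 FPKM in WKY (SD, n = 4 each), a log2 difference of -0.42 (SE 0.12, 95% interval -0.68 to -0.15, adjusted p = 0.0202; exact permutation p = 0.0286). Without WKY replicate 4 it was -0.35 and no longer passed (adjusted p = 0.0580). The authors' deposited table gives -0.43 (q = 0.00917).

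Ece1 had 136.81, 139.01, 114.04 and 145.42 FPKM in SHR adrenal glands, against 127.77, 117.4, 126.34 and 117.03 FPKM in WKY adrenal glands. One SHR library lay below all WKY libraries and the other SHR libraries above them, and the difference of 0.13 (adjusted p = 0.220) passed only without SHR replicate 3 (0.20, adjusted p = 0.0187). Ece2 had 0.80, 1.35, 0.71 and 1.42 FPKM in SHR adrenal glands, against 1.80, 1.60, 2.18 and 1.79 FPKM in WKY adrenal glands. These did not overlap, and the log2 difference was -0.47 (SE 0.14, 95% interval -0.78 to -0.16, adjusted p = 0.0212; exact permutation p = 0.0286). Ece2 lost the call under quantile normalization (-0.30, adjusted p = 0.0915), without SHR replicate 1 (adjusted p = 0.0608) and without WKY replicate 3 (adjusted p = 0.0643). The authors' deposited table gives -0.69 (q = 0.0128).

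Other markers moved with these genes in adrenal glands. Of 12 endothelial markers, 11 were lower in SHR and none higher (8 to 10 without any one library), with a median difference of -0.59 against -0.04 over all genes. None was at 0 in all libraries, and their summed FPKM was 157 to 239 in SHR and 277 to 305 in WKY. Of 8 fibroblast markers, 7 were lower (median -0.91), of 9 leukocyte markers all 9 (median -0.86), and of 11 chromaffin cell and sympathetic neuron markers 10 (median -0.97, summed FPKM 865 to 1468 in SHR and 1771 to 2040 in WKY). None of these 4 lists had a member that rose. The same held for cardiomyocyte markers, which belong to another tissue: of 6 tested, 5 were lower (median -0.72). Their levels were low. Myh6 averaged 0.445 FPKM in SHR and 1.505 FPKM in WKY, and Myl2 averaged 0.46 and 1.485 FPKM. Myh6 and Myl2 passed the filter only through the WKY libraries, so their lower level in SHR was largely fixed by the filter. What the fall of these lists reflects was not tested. The remaining lists moved both ways: 2 of 8 Schwann cell and satellite glia markers were higher and 4 lower, 1 of 10 smooth muscle and pericyte markers higher and 3 lower, 1 of 7 neuronal markers higher and 4 lower, and 2 of 7 adrenal cortex markers higher and 1 lower. Their part in the lower Ednrb and Ece2 was not tested.

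**Figure D3:**
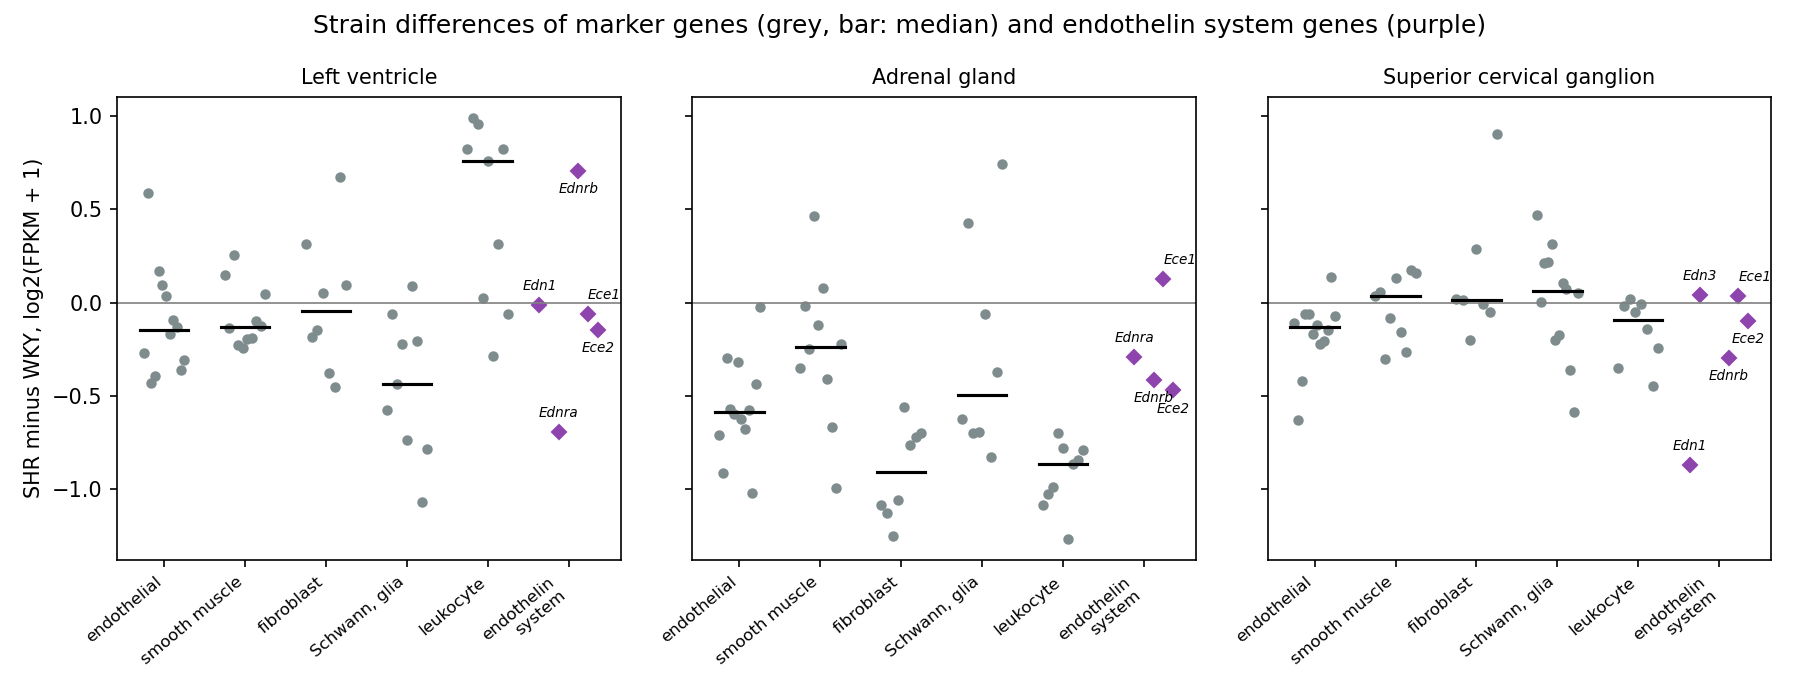
Strain differences (SHR minus WKY, log2(FPKM + 1)) of the marker genes of 5 cell types, as grey points with a bar at the median, beside those of the endothelin system genes in purple. In the adrenal gland the endothelial, fibroblast and leukocyte medians lie at -0.59, -0.91 and -0.86, and in the left ventricle Ednra and Ednrb lie on opposite sides of 0.

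Within the superior cervical ganglion, 2 of the 5 genes tested were lower in SHR, against 10.8% of 12987 genes that changed in either direction and 4.43% that were lower. These were Edn1, the endothelial vasoconstrictor ligand, and Ednrb. Edn1 was tested only because its WKY libraries passed the filter, so the count is not read against the background. Edn3 was the more abundant ligand in every ganglion library. Of all genes tested, 17.2% had no overlap between strains.

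Edn1 had 0.40, 0.45, 0.52 and 0.47 FPKM in SHR ganglia, against 1.55, 1.10, 1.28 and 3.16 FPKM in WKY ganglia. All SHR libraries lay below all WKY libraries, and the gene passed the filter only through the WKY libraries, with every SHR library below 1 FPKM. The log2 difference was -0.87 (SE 0.19, 95% interval -1.29 to -0.45, limma adjusted p = 0.0161; exact permutation p = 0.0286). With smaller pseudocounts it was -1.16 (0.5) and -1.63 (0.1). Without any one SHR library it passed with adjusted p-values of 0.0422 to 0.0474, and without any one WKY library it fell under the filter. With no filter and all 8 libraries it passed (adjusted p = 0.0260). With no filter and one library left out it ranged from -0.99 to -0.66 over the 8 refits and passed in 3 of them, without WKY replicates 2, 3 or 4. The authors' deposited table gives -1.80 (q = 2.05e-04).

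Edn3 had 57.56, 67.28, 66.76 and 65.54 FPKM in SHR ganglia, against 62.33, 67.38, 54.60 and 66.16 FPKM in WKY ganglia. These overlapped, and the difference was 0.04 (SE 0.07, limma adjusted p = 0.807). Ednra was listed at 0.60 to 0.89 FPKM in SHR and 0.34 to 0.82 FPKM in WKY ganglia (exact permutation p = 0.429).

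Ednrb had 5.11, 4.81, 5.04 and 4.78 FPKM in SHR ganglia, against 5.94, 6.20, 6.14 and 6.93 FPKM in WKY ganglia. The groups did not overlap and the spread within SHR was small. The log2 difference was -0.30 (SE 0.06, 95% interval -0.43 to -0.16, adjusted p = 0.0105; exact permutation p = 0.0286). In the joint model of the 3 tissues it had the same value and did not pass (adjusted p = 0.132). The authors' deposited table gives -0.33 (q = 0.00294).

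Ece1 averaged 44.0 ± 2.19 FPKM in SHR and 42.9 ± 2.62 FPKM in WKY ganglia (SD, n = 4 each), a difference of 0.04 (limma adjusted p = 0.738). Ece2 averaged 49.9 ± 2.56 FPKM in SHR and 53.5 ± 1.42 FPKM in WKY ganglia (n = 4 each), a difference of -0.10 (SE 0.04, adjusted p = 0.194, exact permutation p = 0.0571). Of 12 endothelial markers none passed in ganglia (0 to 2 without any one library, 2 under quantile normalization), and their summed FPKM was 78.0 to 108 in SHR and 82.4 to 124 in WKY. Of 12 Schwann cell and satellite glia markers 1 was higher and 1 lower, with summed FPKM of 1280 to 2041 in SHR and 1288 to 2147 in WKY. Their part in the lower Edn1 and Ednrb was not tested.

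**Figure D4:**
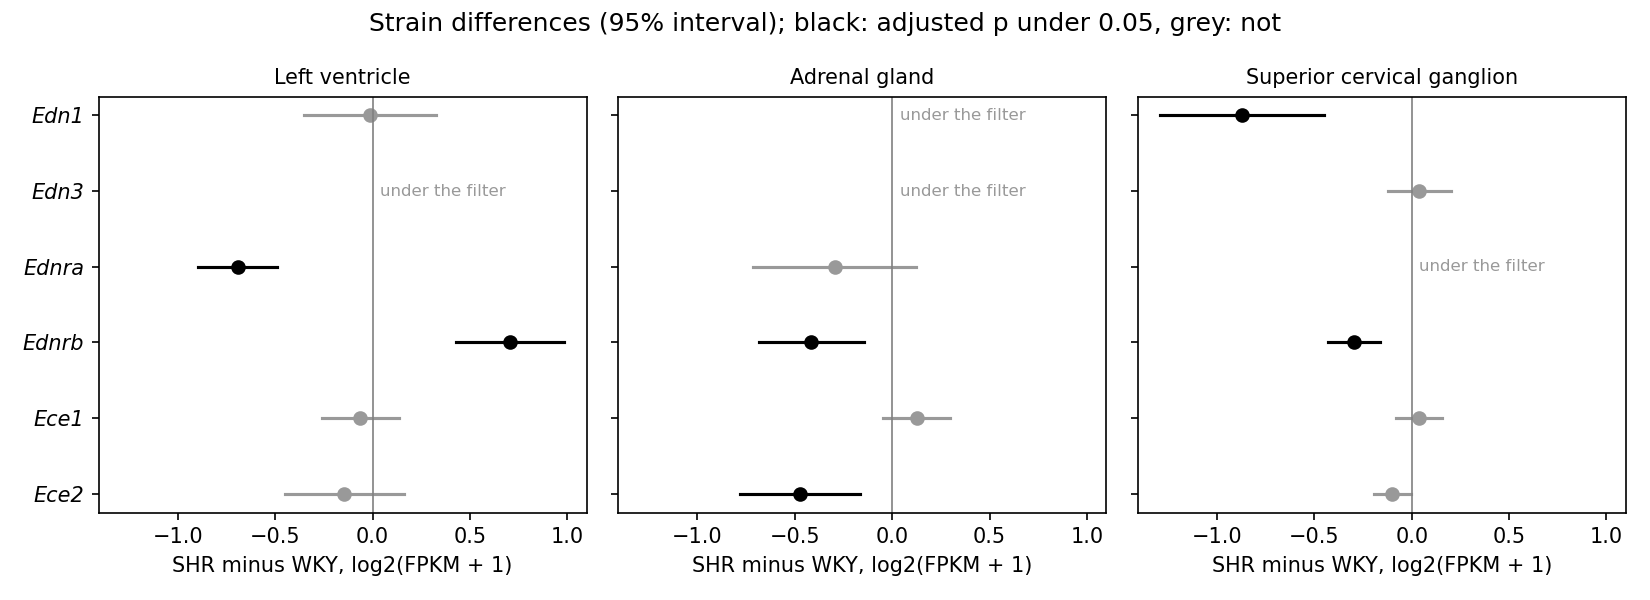
Strain differences (SHR minus WKY, log2(FPKM + 1)) of the 6 genes in each tissue, with 95% intervals from limma; black points passed the threshold, grey did not, and genes under the filter are marked. Ednra and Ednrb stand at -0.69 and 0.71 in the left ventricle, and Ednrb lies below 0 in the other tissues.

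The authors' deposited table called the same 6 of the 18 gene and tissue pairs as this model (q under 0.05). Pairs under the filter count as not called here: Edn3 in left ventricles, Edn1 and Edn3 in adrenal glands and Ednra in ganglia. Both sets of calls come from the same libraries, so the match is not independent support.

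Whether the strain difference depended on the tissue was tested in the joint model. For Ednrb, the difference in the adrenal gland was below that in the left ventricle (-1.12 log2 units, SE 0.16, adjusted p = 1.06e-05), where 34.5% of genes passed. In the ganglion it was also below that in the left ventricle (-1.0, SE 0.16, adjusted p = 1.26e-04), where 14.4% of genes passed. The adrenal gland minus ganglion difference for Ednrb was -0.12 and did not pass (adjusted p = 0.616), which does not show that the tissues were alike. So the higher Ednrb of SHR was found in left ventricles, and lower Ednrb in the other tissues by the models of each tissue. The lower values were less firm. In ganglia Ednrb did not pass in the joint model (adjusted p = 0.132), and in adrenal glands it did not pass without WKY replicate 4 (adjusted p = 0.0580). For Ednra the ganglion minus left ventricle difference was 0.80 (SE 0.21, adjusted p = 0.0118), on values under 1 FPKM in ganglia, and it did not pass without SHR replicate 3 (adjusted p = 0.0527) or WKY replicate 3 (adjusted p = 0.0566). For Edn1 the ganglion minus left ventricle difference was -0.86 (adjusted p = 0.0124), which did not pass without SHR replicate 1 (adjusted p = 0.0598). The adrenal gland minus ganglion difference for Edn1 was 0.71 (adjusted p = 0.0201, with 29.8% of genes passing), and did not pass without SHR replicate 2 (adjusted p = 0.0511) or with a pseudocount of 0.1 (adjusted p = 0.0566).

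Genes next to the receptors in the pathway were read from a list of 38 with 37 in the table: proteases, G proteins, phospholipases, protein kinases C, RGS proteins and others. In left ventricles 4 of 30 tested rose and 5 fell in SHR, where 21.2% of all genes passed, with a median of -0.12 against -0.03 over all genes. Prkca, a classical protein kinase C, averaged 8.05 ± 1.76 FPKM in SHR and 4.42 ± 0.666 FPKM in WKY (log2 difference 0.72, adjusted p = 0.00668). Rgs4, which shortens Gq signals, averaged 10.2 ± 0.794 FPKM in SHR and 16.8 ± 0.494 FPKM in WKY (-0.67, adjusted p = 1.45e-04). Gna12 (0.39), Grk2 (0.27), which phosphorylates activated receptors, and Rhoa (0.17) rose, and Plcb1 (-0.63), Itpr2 (-0.46) and Itpr3 (-0.38) fell. Without any one library 5 to 10 genes of the list passed, and 5 did when WKY replicate 1 was left out.

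In adrenal glands 4 of 29 tested rose and 9 fell, where 41.2% of all genes passed, with a median of -0.01 against -0.04 over all genes. The count is near that background, and the genes named are single values. Rgs2, a brake on Gq signalling, averaged 378 ± 169 FPKM in SHR and 29.4 ± 8.76 FPKM in WKY (3.57, adjusted p = 4.18e-04). Plcb4, a phospholipase C, averaged 2.90 ± 0.172 FPKM in SHR and 12.01 ± 2.03 FPKM in WKY (-1.73, adjusted p = 4.95e-06). Mme, the protease neprilysin, which degrades endothelins, averaged 10.5 ± 0.931 FPKM in SHR and 22.7 ± 2.69 FPKM in WKY (-1.04, adjusted p = 4.39e-05). Rgs5 (-0.99), Rgs4 (-0.64), Prkca (-0.49) and Prkcb (-0.45) fell and Furin (0.52) rose. Prkcb lay near the filter, at 0.69 ± 0.232 FPKM in SHR and 1.295 ± 0.111 FPKM in WKY. Its WKY libraries alone met the filter, so its fall is not read as a result. Without any one library 8 to 11 genes passed, and 8 did when WKY replicate 4 was left out.

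In ganglia 3 of 30 tested rose and none fell, where 10.8% of all genes passed, with a median of -0.01 against 0.01 over all genes. The count is near that background. Prkcb, a protein kinase C, averaged 12.1 ± 1.29 FPKM in SHR and 6.79 ± 0.467 FPKM in WKY (0.75, adjusted p = 1.70e-04), and Prkcd (0.60) and Prkce (0.41) followed. Without any one library 3 genes of the list passed.

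Other genes whose levels tracked a member over the 24 libraries are given as a description, since all share the tissue differences. Edn3 was tracked by Elavl2, Plch2, Tmem132c, Sv2b and Epha5 (Pearson r 0.999), Ece2 by Adcy2, Cdkl2, Nacad, Rab11fip4 and Tubb2b (0.998). Ednra was tracked by Prkab1, Ppara, Pcdh12, Bcl2l11 and Pola2 (0.981 to 0.984), Ednrb by Dnah5, Klhl6, Slc35f5, Osmr and Ctgf (0.957 to 0.964), Ece1 by Necap2, Tbc1d20, Mbtps1, Ets2 and Ss18 (0.986 to 0.988) and Edn1 by Tnni1, Perp, Ifngr2, Unc13d and Srd5a3 (0.848 to 0.902). After the mean of each tissue was subtracted, the closest genes were Wnt5a, LOC103690089 and Usf1 for Ednra (0.863 to 0.874), Cxxc4, Eif1a and Wdr70 for Ednrb (0.826 to 0.831) and Aldoc, Apc2 and Astn2 for Ece2 (0.845 to 0.859). They were LOC501346, Csap1 and Tnni1 for Edn1 (0.823 to 0.842), Vta1, Tbc1d9b and Anapc2 for Ece1 (0.715 to 0.737) and Neurl1, RGD1564463 and Tram1l1 for Edn3 (0.669 to 0.687).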

How the data were processed

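Total RNA of the left ventricle, adrenal gland and superior cervical ganglion was extracted with Trizol and sequenced on the BGISEQ-500 after KAPA RNA HyperPrep library construction, per the labels' protocols. Per the submitters' processing notes, Rnor_6.0 was the build, and the tools listed there, with no role or order, are DESeq2 1.4.5, RSEM 1.3.1 and Bowtie2. The deposited table gives FPKM per gene and library, as well as the authors' log2 ratios and q-values per strain comparison, per the file headers. FPKM keeps no read counts, so depth is unknown. Whether counting used strand is not given in the sources used here. Ednra and Ece2 overlap long noncoding RNA genes in GRCr8 by gene span, and strand and exons were not compared. Whether reads of these genes could be told apart is therefore not known.

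Of 22864 rows, 2358 were blank and 20506 were used. SHR and WKY were compared per tissue with limma 3.58.1 (R 4.3.3, trend and robust empirical Bayes) on log2(FPKM + 1), over genes with at least 1 FPKM in at least 4 of the 8 libraries, with Benjamini-Hochberg adjustment over all genes tested. A joint model of 24 libraries gave the tissue and strain-by-tissue comparisons. Fold differences on this scale understate the change of low genes. The exact permutation test of each gene was two-sided over 70 arrangements. The model was tested on simulated data. The alternatives were other pseudocounts, filters and scalings, a replicate block and leaving out each library. Same-numbered SHR and WKY libraries deviated from their group means with correlations from -0.155 to 0.230, not all above 0.1, so numbers were not taken as pairs.

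The 6 genes and the gene lists were chosen with earlier results of these data known. Of the pathway list at most 8 passing genes per tissue are named, by smallest adjusted p, and for each of the 6 genes the most correlated genes, the first 5 over all libraries and the first 3 after tissue means were subtracted.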

Additional observations from a re-analysis of the deposited data

Results flagged for a closer look

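In 2 of the groups, a library stood far from the other 3, and chance flags about 1 in 20 groups. Ednra in SHR ganglia had a gap of 0.897 of the group's range, because replicate 3 was listed at 0.89 FPKM and the others at 0.60 to 0.63 FPKM. Ednrb in SHR adrenal glands had a gap of 0.961 of the range, because replicate 1 was at 4.30 FPKM and the others at 6.01 to 6.08 FPKM.

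In 5 cases the strain difference (SHR minus WKY, log2(FPKM + 1)) depended on the tissue by a test of the difference itself. The adrenal gland minus left ventricle difference was -1.12 for Ednrb. The ganglion minus left ventricle difference was -1.0 for Ednrb, -0.86 for Edn1 and 0.80 for Ednra. The adrenal gland minus ganglion difference was 0.71 for Edn1, on values at or below 0.51 FPKM in adrenal glands. In that order, 1, 3 and 1 of the 6 genes passed in these contrasts. Of all genes tested, 34.5%, 14.4% and 29.8% passed in the same contrasts, so a single case says little.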

How the results depend on the processing

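Ednra and Ednrb passed in left ventricles under every alternative tried. In adrenal glands, 2 of the 6 genes passed, 1 with a mean of at least 5 FPKM (which left Ece2 untested), 1 with quantile normalization and 1 to 3 without any one library. In ganglia 2 passed, 1 with a mean of at least 5 FPKM (which left Edn1 untested), 1 in the joint model and 1 to 2 without any one library, 1 wherever a WKY library was left out because Edn1 then failed the filter. For strain differences between tissues, the adrenal gland and left ventricle gave 1 gene, 2 with quantile normalization (Ednra 0.53, adjusted p = 0.0374) and 1 to 2 without any one library. The adrenal gland and ganglion gave 1, 0 with a pseudocount of 0.1 (Edn1 1.05, adjusted p = 0.0566) and 0 to 2 without any one library. No member's difference changed sign past the threshold in these alternatives; the cause of the other moves was not tested. Refits without the filter that left out one library were added after the data were seen.

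The replicate block, with the replicate number as a term, gave 2407 calls in left ventricles, 5182 in adrenal glands and 1206 in ganglia, against 2644, 5181 and 1402 without it, and it changed no call of the 6 genes. In the joint model the block was instead a number within a strain, across the 3 tissues, and the correlation within it was 0.00362. It does not bear on pairs of SHR and WKY libraries. Not every library correlated best with its own number.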
